A study of Mus musculus with 54 samples.

Results

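The 55 genes described here encode regulators of chromatin and DNA methylation. They were chosen by name, as genes that methylate DNA or oxidize its methyl marks, methylate or demethylate histones, add or remove histone acetyl groups, or remodel nucleosomes. All 55 had a row among the 47069 genes counted. Poly-A RNA was sequenced in 54 libraries, 1 for each of 3 brain regions (cortex, striatum, cerebellum) in 10 Mbd5+/GT and 8 WT mice, females and males, all 8 weeks old and on a C57BL/6 background. Mbd5+/GT mice carry a gene trap in the second intron of 1 Mbd5 copy, which makes that copy hypomorphic and leaves the other intact, and the WT mice were their littermates. The mice came from 3 litters, and only 1 of the 5 mice of litter 2 was WT. Litter 1 was all female and litter 2 all male, and litter 3 held both sexes. Fits without litter 2 therefore leave out 4 Mbd5+/GT males and 1 WT male, and litter and sex cannot be told apart in them. The labels state a shared collection day for each tissue type, and if each tissue had its own day, region and day of collection cannot be told apart.

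Gene activity depends on marks that enzymes write on DNA and on histones, and on remodellers that move or eject nucleosomes. DNA methyltransferases write 5-methylcytosine and TET enzymes oxidize it, SET-domain enzymes and the Polycomb complex PRC2 methylate histone lysines, lysine demethylases reverse this, and acetyltransferases and deacetylases set acetylation. Neurons hold unusually high levels of oxidized methylcytosine, and loss-of-function variants in many of these genes, as in MBD5 itself, cause neurodevelopmental disorders. MBD5 belongs to the methyl-CpG-binding domain family, so the comparisons ask whether transcripts of the wider chromatin machinery differ between brain regions and whether they change when Mbd5 is reduced.

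A methylation regulator's own promoter is often rich in CpG, the site of DNA methylation, and the promoters of 3 members with large differences between regions are shown for that reason. RefSeq windows on GRCm38.p6, from 250 bases before to 50 bases after a start, were used for 41 of the 55 members, 59 windows in all. Members held a median of 28 CpG per window, against 7 over all 32851 windows of the table, and 51 of the 59 windows (86.4%) held at least 10, against 43.5% of all windows. The GC box GGGCGG, searched on both strands and itself holding a CpG, was found in 71.2% of the members' windows and in 35.7% of all windows. Setd5, Hdac9 and Hdac8 stayed under 10 in every window, with at most 1, 3 and 6 CpG. The windows below are written 5′ to 3′ on the gene's strand with each CpG in capitals. Hdac9, a class IIa deacetylase, has an internal start at chr12:34528840-34529139 (minus strand) with 3 CpG and an upstream start at chr12:34917046-34917345 (minus strand) with 0. The remodeller gene Chd5 at chr4:152338401-152338700 (plus strand) has 32. Uhrf1, the factor that guides maintenance methylation, has an upstream start at chr17:56303087-56303386 (plus strand) with 12 CpG. Its downstream start at chr17:56304063-56304362 (plus strand) has 33, and only that Uhrf1 window is written out below.
Hdac9 internal start: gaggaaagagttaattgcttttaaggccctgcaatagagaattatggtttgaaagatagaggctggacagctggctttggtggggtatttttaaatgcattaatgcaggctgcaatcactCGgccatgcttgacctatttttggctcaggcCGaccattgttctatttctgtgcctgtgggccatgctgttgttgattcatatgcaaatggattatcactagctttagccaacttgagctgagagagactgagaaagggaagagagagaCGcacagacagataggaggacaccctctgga
Hdac9 upstream start: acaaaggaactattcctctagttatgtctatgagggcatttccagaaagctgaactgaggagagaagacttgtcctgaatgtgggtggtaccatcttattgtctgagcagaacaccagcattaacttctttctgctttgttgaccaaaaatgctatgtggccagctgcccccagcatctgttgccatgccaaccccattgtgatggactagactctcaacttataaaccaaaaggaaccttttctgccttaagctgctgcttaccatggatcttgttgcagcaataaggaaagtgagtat
Chd5: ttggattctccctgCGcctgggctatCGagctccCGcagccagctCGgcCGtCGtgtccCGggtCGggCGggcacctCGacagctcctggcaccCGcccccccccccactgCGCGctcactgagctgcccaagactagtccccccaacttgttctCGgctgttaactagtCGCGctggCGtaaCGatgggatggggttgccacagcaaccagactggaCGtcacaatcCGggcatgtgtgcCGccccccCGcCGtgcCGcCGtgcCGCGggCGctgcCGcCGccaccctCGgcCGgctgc
Uhrf1: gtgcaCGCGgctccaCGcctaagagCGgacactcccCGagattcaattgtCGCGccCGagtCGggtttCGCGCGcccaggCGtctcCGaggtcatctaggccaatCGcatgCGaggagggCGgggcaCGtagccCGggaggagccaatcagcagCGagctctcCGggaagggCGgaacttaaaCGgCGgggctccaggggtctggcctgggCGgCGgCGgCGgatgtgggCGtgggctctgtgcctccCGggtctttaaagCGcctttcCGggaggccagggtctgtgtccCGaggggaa

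Gene counts summed to 25295973 to 49027399 per library (median 29073866). Mbd5 itself was at 69.9%, 75.0% and 76.9% of the WT mean in Mbd5+/GT cortex, striatum and cerebellum, with log2 fold changes of −0.49 ± 0.05, −0.51 ± 0.05 and −0.34 ± 0.05 (SE) and edgeR adjusted p of 0.000120, 9.41e-05 and 0.00912. Among the 54, 6 libraries, of 4 mice, stood apart by markers of their own region or of hindbrain. The striatum libraries of WT mice M754 and M761 held 8.18% and 21.3% of the median level of striatal markers, and 4 cerebellum libraries (WT mice M754 and M761, Mbd5+/GT mice M755 and M756) held 38.4 to 223 CPM of hindbrain Hox transcripts, and the one with the most, of mouse M755, held 4.93% of the median level of cerebellar markers. The summed level of 6 oligodendrocyte markers had WT medians of 5194 CPM (cortex), 12770 (striatum) and 5899 (cerebellum), and that of 7 markers of proliferating cells 17.8, 39.2 and 26.3 CPM. Cortex and striatum libraries each held markers of the other region. The summed level of 8 cortical markers had a median of 1216 CPM (896 to 1660) in WT cortex and 775.5 (327 to 1249) in WT striatum. That of 8 striatal markers was 1219 CPM (166 to 2002) in WT cortex and 4070 (294 to 7153) in WT striatum. The part of this in the comparisons of cortex with striatum was not tested. These are bulk tissues, in which fewer cells of a type and less RNA per cell cannot be told apart. Of the members, 25 share exon sequence with another gene, 21 of them on the opposite strand, and their counts are uncertain to that extent because the strand setting of the counting is not given in the sources used here.

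Every member passed the filter on low counts in every region. Levels are given as RPKM, the TMM-normalized count divided by exon length and by the mean library size (reads per kilobase per megaread). In WT cortex the highest of the 55 were the NuRD-type remodeller Chd3 (71.0 ± 9.80 RPKM, SD, n = 8), the lysine defatty-acylase and deacetylase Hdac11 (48.4 ± 4.35), Chd5 (35.1 ± 7.76), the H3K9 mono- and dimethyltransferase Ehmt2 (34.2 ± 1.99) and Chd4 (24.2 ± 2.86). The lowest were the de novo methyltransferase Dnmt3b (0.238 ± 0.0546), Uhrf1 (0.278 ± 0.0724), Tet1 (0.940 ± 0.188), the PRC2 catalytic subunit Ezh2 (1.20 ± 0.0980) and Chd7 (1.35 ± 0.251). In WT striatum Hdac11 (65.0 ± 11.1) and Chd3 (62.2 ± 14.3) led, followed by Ehmt2 (43.9 ± 4.76), the NCoR-bound deacetylase Hdac3 (27.3 ± 2.89) and Chd4 (26.7 ± 3.47), and Dnmt3b (0.209 ± 0.0603), Tet1 (0.664 ± 0.149), Uhrf1 (0.805 ± 0.336), Hdac9 (0.857 ± 0.391) and the demethylase gene Kdm2b (1.40 ± 0.211) were lowest. In WT cerebellum the order was Hdac11 (42.7 ± 6.91), Chd4 (27.1 ± 3.24), the SWI/SNF ATPase Smarca4 (24.1 ± 3.15), Chd3 (23.8 ± 6.65) and Hdac3 (23.5 ± 2.63), with neighbours from Chd4 on closer than their SDs, and the lowest were Uhrf1 (0.150 ± 0.0588), Dnmt3b (0.672 ± 0.152), Hdac9 (0.880 ± 0.225), Ezh2 (2.18 ± 0.333) and Tet1 (2.29 ± 0.850). On the log2 scale the members' SD between WT mice had medians of 0.23 (cortex), 0.24 (striatum) and 0.28 (cerebellum), against 0.25, 0.31 and 0.33 over all genes tested.

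**Figure D1:**
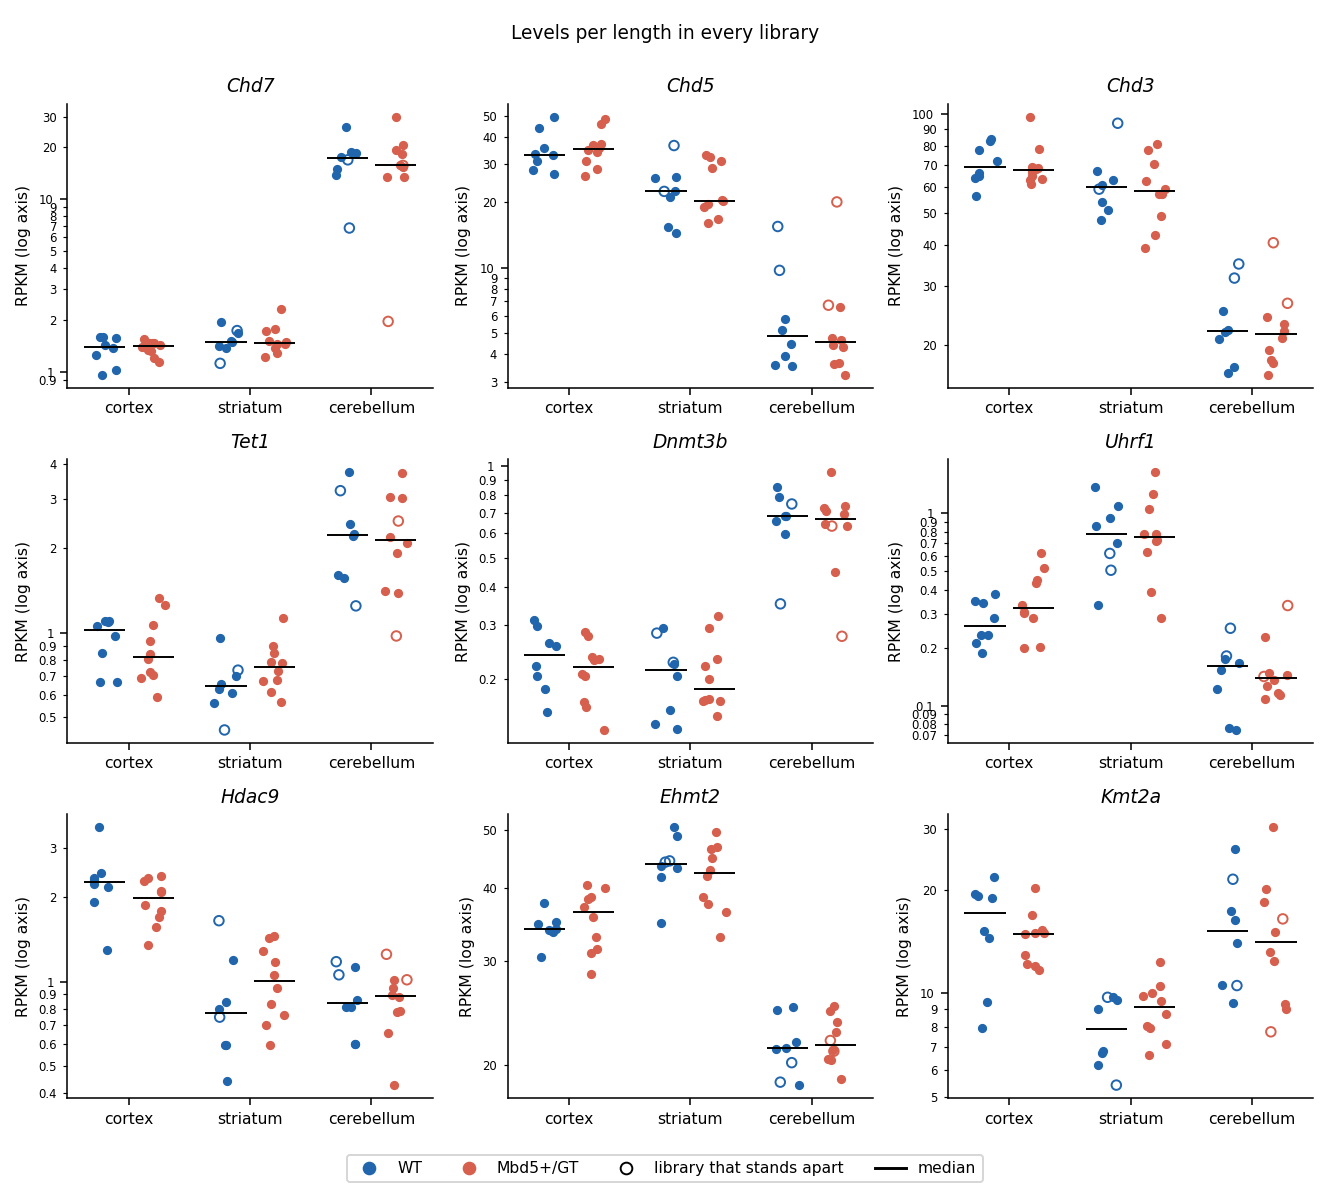
Level of 9 members in every library, in RPKM on log axes, by region, with WT in blue and Mbd5+/GT in red, open circles for the 6 libraries that stand apart and bars for the median of each group. Chd7 is near 1 to 2 RPKM in cortex and striatum and at a median of 17.2 in WT cerebellum, and Mbd5+/GT mouse M755 lies at 1.96 in cerebellum.

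Regions were compared in WT and in Mbd5+/GT mice with edgeR's quasi-likelihood test in 1 fit of all 54 libraries, with Benjamini-Hochberg adjustment over 20477 genes. In WT mice 24 of the 55 members (43.6%) were higher and 8 (14.5%) lower in cerebellum than in cortex at an adjusted p under 0.05, against 28.2% and 27.6% of all genes tested. Against striatum, 35 members (63.6%) were higher and 8 (14.5%) lower in cerebellum, where 32.9% and 32.6% of all genes were. Between cortex and striatum, 22 members (40.0%) were higher and 7 (12.7%) lower in cortex, against 24.4% and 22.7% of all genes. The members' median log2 fold change was 0.20, 0.51 and 0.19 in these comparisons, and that of all genes tested 0.02, −0.02 and 0.00077. Differences of at least 2-fold were held by 7, 12 and 3 members (12.7%, 21.8% and 5.45%), against 24.7%, 30.1% and 10.5% of all genes, so large differences took a smaller share of the members than of all genes.

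The 10 Mbd5+/GT mice gave 26 members higher and 8 lower in cerebellum than in cortex (31.0% and 28.9% of all genes), 34 and 6 against striatum (33.6% and 31.4%), and 15 and 4 in cortex against striatum (18.3% and 17.1%). All 32 members called between cerebellum and cortex in WT mice were also called in Mbd5+/GT mice, in the same direction, as were 39 of 43 against striatum and 19 of 29 between cortex and striatum, and the members not called in the second genotype had the same sign there. Agreement over all genes was not counted, so these counts do not set the members apart from other genes. Both genotypes were in the same fit. Without litter 2 the count between cortex and striatum in Mbd5+/GT mice fell from 19 to 2 (3.64%), and the share of all genes called fell from 35.4% to 4.06%.

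**Figure D2:**
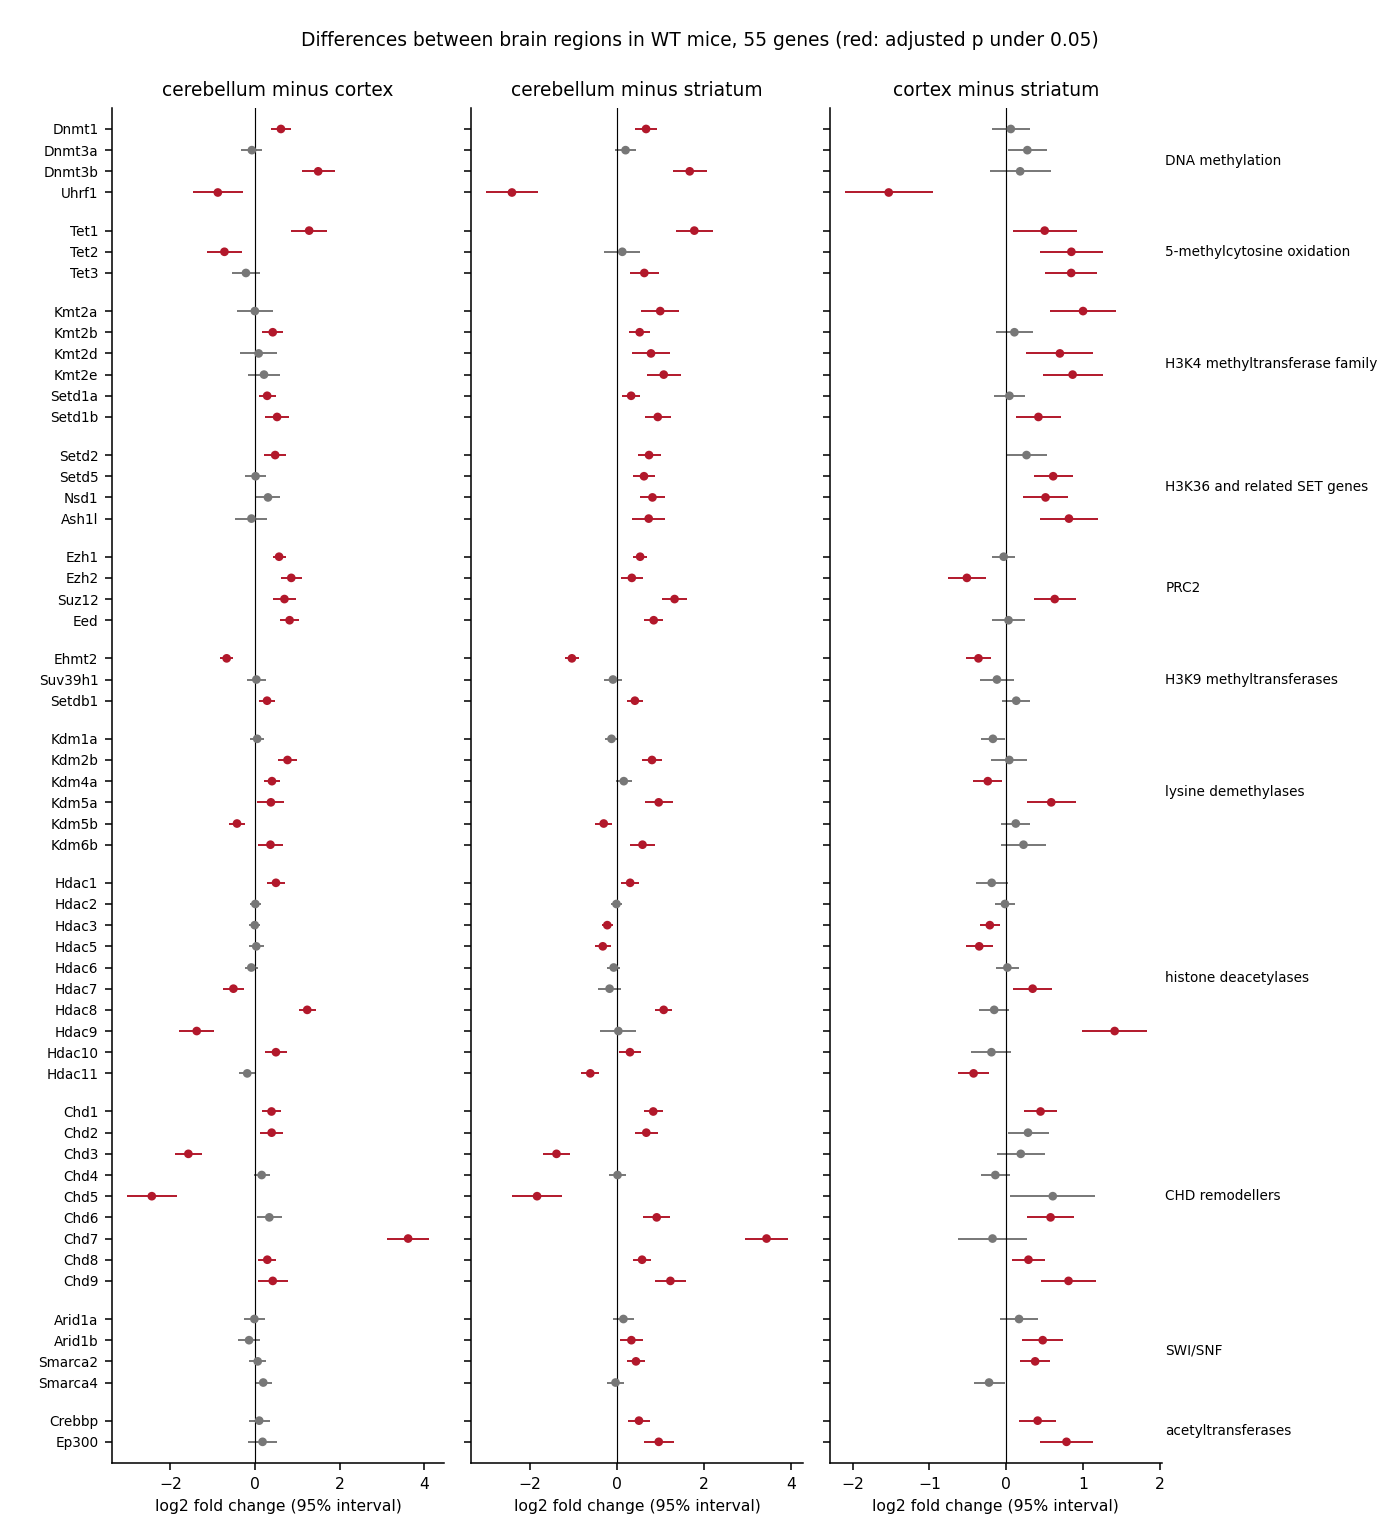
Log2 fold changes of the 55 members between regions in WT mice with 95% intervals, ordered by role, in red where the adjusted p is under 0.05; the horizontal scale of the right panel is narrower. The 4 PRC2 genes lie to the right of 0 in both cerebellar comparisons, and Chd7 lies at 3.62 and 3.44.

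Exon length moved with the differences that involve striatum. Members are long transcripts, with a median exon length of 9583 bases against 4296 over the protein-coding genes tested. The log2 fold change of cortex over striatum in WT mice correlated with exon length at a Spearman coefficient of 0.74 over the 55 members and 0.44 over 16024 protein-coding genes, as a description across genes that share the same libraries. Protein-coding genes with exons of more than 12000 bases had a median log2 fold change of 0.51 and those of at most 2000 bases one of −0.41. The 22 members above 12000 bases had a median of 0.55, the 19 between 4000 and 8000 bases one of −0.03. The same coefficient was 0.37 for cerebellum over striatum and −0.15 for cerebellum over cortex among members. Within single libraries the modelled level at 8 kb minus that at 2 kb, relative to the mean over libraries, was −0.66 to −0.06 in WT striatum (median −0.34), −0.19 to 0.40 in WT cortex (0.29) and −0.36 to 0.58 in WT cerebellum (0.13). In Mbd5+/GT mice it was −0.50 to 0.13 in striatum (median −0.20), −0.02 to 0.34 in cortex (0.18) and −0.39 to 0.64 in cerebellum (0.03).

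When each library's length trend was entered as an offset, an alternative chosen after seeing the data, the split between cortex and striatum in WT mice turned from 22 higher and 7 lower to 9 higher (16.4%) and 19 lower (34.5%), where 22.0% and 20.5% of all genes were, and in Mbd5+/GT mice from 15 and 4 to 6 and 11 (16.1% and 15.4% of all genes). The members higher in cortex in both fits were Ash1l, Tet2, Kmt2e, Tet3, Chd9, Kmt2a, Suz12, Hdac9 and Ep300, all 7 lower members remained lower, and Chd8 was called higher in one fit and lower in the other. Against striatum the cerebellar split in WT mice went from 35 and 8 to 24 and 17 (31.4% and 34.1% of all genes), and 24 of the 35 were called higher in both, while in Mbd5+/GT mice it went from 34 and 6 to 28 and 13 (31.2% and 33.7%). Between cerebellum and cortex all 32 calls in WT mice remained, in a split of 26 and 9 (27.0% and 30.4% of all genes). Directions against striatum are therefore given below with the value from the length offset where it differs.

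**Figure D3:**
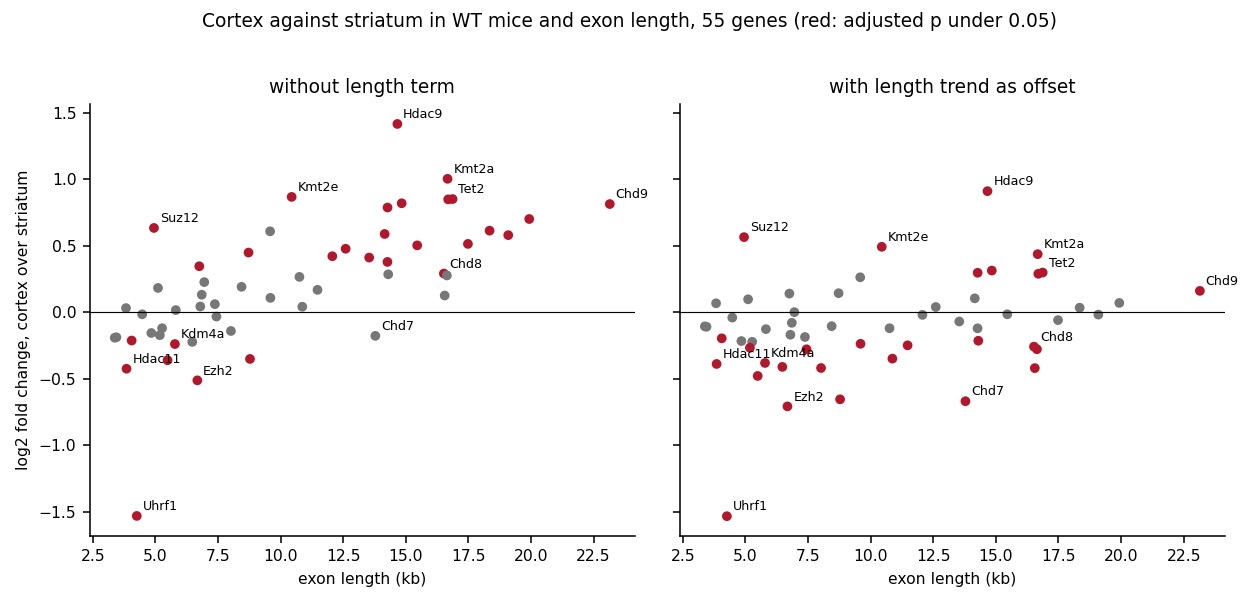
Log2 fold change of cortex over striatum in WT mice against exon length in kilobases for the 55 members, without (left) and with (right) the length trend as an offset, in red where the adjusted p is under 0.05. Long members lie above 0 on the left, with a Spearman coefficient of 0.74, and around 0 on the right, with one of 0.33.

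Among DNA methylation genes, Dnmt3b and the maintenance methyltransferase Dnmt1 were higher in cerebellum and Uhrf1 was lower. Dnmt3b lay at 0.157, 0.239 and 0.313 RPKM (lowest, median and highest of 8 WT mice) in cortex, 0.138, 0.214 and 0.295 in striatum, then 0.353, 0.685 and 0.855 in cerebellum. The cerebellar libraries did not overlap the others, and the lowest was mouse M754. The fitted log2 fold change was 1.50 ± 0.20 (SE) over cortex (adjusted p = 4.11e-09) and 1.68 ± 0.20 over striatum (1.97e-10), at mean normalized counts of 36.7 (cortex), 32.3 (striatum) and 104 (cerebellum). Dnmt1 was higher by 0.61 ± 0.12 and 0.68 ± 0.12 (adjusted p of 2.50e-05 and 4.01e-06). The de novo enzyme Dnmt3a was called in none of the 3 WT comparisons, with intervals within −0.32 to 0.53, although the length offset put it lower in cortex and in cerebellum than in striatum (−0.28 and −0.34, adjusted p of 0.00506 and 0.000269).

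Uhrf1 was higher in striatum than in both other regions, by more than any other member. WT mice had 0.189, 0.259 and 0.381 RPKM (lowest, median, highest) in cortex, 0.334, 0.781 and 1.37 in striatum, then 0.0747, 0.160 and 0.253 in cerebellum. Every WT mouse had its highest value in striatum and its lowest in cerebellum. On the log2 scale the difference was −1.53 ± 0.28 for cortex over striatum (adjusted p = 3.13e-05), −2.41 ± 0.30 for cerebellum over striatum (8.30e-10) and −0.88 ± 0.30 for cerebellum over cortex (0.0100), and the first was −1.53 with the length offset too. The proliferating-cell markers, whose medians are given above, were also highest in striatum, and their part in this difference was not tested. Uhrf1 had the largest SD between mice of all members in striatum of both genotypes, 0.65 (WT) and 0.74 (Mbd5+/GT) on the log2 scale.

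Of the TET dioxygenases, Tet1 was higher in cerebellum, Tet2 was highest in cortex and Tet3 was higher in cortex and cerebellum than in striatum. Tet1 had 0.665, 1.02 and 1.10 RPKM (lowest, median, highest) in WT cortex, 0.450, 0.645 and 0.962 in striatum, with 1.25, 2.24 and 3.74 in cerebellum. Its cerebellar values did not overlap those of the other regions, with log2 fold changes of 1.28 ± 0.21 over cortex (adjusted p = 6.45e-07) and 1.78 ± 0.21 over striatum (2.90e-10), or 1.24 with the length offset. Between cortex and striatum it passed at 0.50 ± 0.21 (0.0424), but not with the offset (−0.02, 0.937) or without the 6 libraries that stand apart (0.42, 0.0743). Tet2 had 2.52, 4.32 and 5.10 RPKM in WT cortex, 1.51, 2.18 and 3.31 in striatum, with 1.34, 2.42 and 3.89 in cerebellum, with overlapping ranges. It was lower in cerebellum than in cortex in all 8 mice (−0.72 ± 0.21, adjusted p = 0.00236) and higher in cortex than in striatum in 6 of 8 (0.85 ± 0.21, 0.000750), which was 0.30 with the length offset (0.0202). Tet3 was higher in cortex than in striatum by 0.85 ± 0.17 (7.11e-05), or 0.29 with the offset (0.0234), and in cerebellum by 0.63 ± 0.17 (0.000886), or 0.09 with it (0.468).

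The 6 genes of the H3K4 methyltransferase family were all higher in cerebellum than in striatum in WT mice, by 0.33 to 1.08, and 3 of them (Kmt2b, Setd1a, Setd1b) also than in cortex. With the length offset Kmt2b, Kmt2d and Setd1a did not pass against striatum (0.18, 0.13 and 0.10). Kmt2a, the catalytic subunit of an MLL complex, had 7.91, 17.1 and 21.8 RPKM (lowest, median, highest) in WT cortex, 5.41, 7.88 and 9.75 in striatum, with 9.40, 15.2 and 26.4 in cerebellum. Cortex and cerebellum overlapped throughout, and striatum lay lower in 6 of 8 mice than cortex. The log2 difference was 1.00 ± 0.21 for both cortex (adjusted p = 0.000196) and cerebellum (6.61e-05) over striatum, and 0.44 and 0.41 with the length offset. Kmt2e, a family member by sequence that lacks methyltransferase activity, had 7.81, 13.7 and 16.4 RPKM in WT cortex, 4.19, 6.81 and 9.52 in striatum, with 9.15, 14.8 and 24.2 in cerebellum. It was 0.87 ± 0.19 higher in cortex than in striatum (0.000329) and 1.08 ± 0.19 higher in cerebellum (3.80e-06), and 0.49 and 0.69 with the offset.

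The 4 H3K36-type and related SET genes, Setd2, Setd5, Nsd1 and Ash1l, were each higher in cerebellum than in striatum, by 0.63 to 0.82 (0.03 for Setd5 and 0.21 for Ash1l with the length offset, neither past the threshold), and 1 of them, Setd2, which places the third methyl group on H3K36, also than in cortex (0.48 ± 0.13, adjusted p = 0.00171). Nsd1, an H3K36 dimethyltransferase, had 7.36, 11.3 and 12.2 RPKM (lowest, median, highest) in WT cortex, 6.07, 7.53 and 8.60 in striatum, with 8.99, 13.5 and 19.6 in cerebellum. Its difference of 0.82 ± 0.15 between cerebellum and striatum (2.87e-06) was 0.23 with the length offset (0.000764), and that of 0.51 ± 0.15 between cortex and striatum (0.00339) was −0.06 (0.441).

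In WT mice PRC2 was the one role group whose members were all called in the same direction in both cerebellar comparisons. Ezh1, Ezh2, Suz12 and Eed were higher in WT cerebellum than in cortex by 0.57 to 0.86 and than in striatum by 0.35 to 1.33. In Mbd5+/GT mice Ezh2 was not called against striatum, and the other 3 were. Suz12, a core subunit, had 7.54, 10.7 and 11.7 RPKM (lowest, median, highest) in WT cortex, 5.26, 6.33 and 9.32 in striatum, with 11.5, 17.4 and 21.0 in cerebellum. Cerebellum and striatum did not overlap, and the log2 fold change was 1.33 ± 0.14 (adjusted p = 6.90e-12), or 1.24 with the length offset, with 0.70 ± 0.14 over cortex (2.05e-05). Eed, the subunit that binds methylated H3K27, was higher by 0.82 ± 0.11 (4.79e-09) and 0.85 ± 0.11 (1.53e-09). Ezh2 had 1.05, 1.24 and 1.30 RPKM in WT cortex, 1.29, 1.78 and 2.04 in striatum, with 1.54, 2.20 and 2.59 in cerebellum. It was 0.51 ± 0.12 lower in cortex than in striatum (0.000785; −0.71 with the offset), and its difference of 0.35 ± 0.12 between cerebellum and striatum (0.0122) was 0.13 with the offset (0.330). Ezh1, the form typical of non-dividing cells, did not pass between cortex and striatum (−0.03 ± 0.08), but was −0.28 with the offset (0.00173).

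The H3K9 methyltransferases went separate ways. Ehmt2 had 30.5, 34.0 and 37.7 RPKM (lowest, median, highest) in WT cortex, 34.8, 43.9 and 50.6 in striatum, with 18.5, 21.4 and 25.1 in cerebellum. The cerebellar values lay below all others, and every WT mouse had its highest level in striatum. The log2 fold change was −0.67 ± 0.08 for cerebellum over cortex (adjusted p = 5.09e-10), −1.03 ± 0.08 for cerebellum over striatum (7.46e-16) and −0.36 ± 0.08 for cortex over striatum (0.000301), with the same signs under the length offset (−0.69, −1.17 and −0.48). Setdb1, which trimethylates H3K9, was 0.29 ± 0.09 and 0.42 ± 0.09 higher in cerebellum (0.00558 and 6.59e-05). The X-linked Suv39h1 had medians of 4.92, 5.14 and 5.12 RPKM in cortex, striatum and cerebellum and passed no comparison.

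Among lysine demethylases, Kdm2b, Kdm5a and Kdm6b were higher in cerebellum than in both other regions, and Kdm5b was lower than in both. Kdm5a, an H3K4 demethylase, had 2.89, 3.92 and 4.59 RPKM (lowest, median, highest) in WT cortex, 1.80, 2.54 and 3.35 in striatum, with 3.40, 4.69 and 7.13 in cerebellum. It was 0.97 ± 0.16 higher in cerebellum than in striatum (adjusted p = 8.28e-07), without overlap, and 0.46 with the length offset. Its relative Kdm5b was 0.42 ± 0.09 lower in cerebellum than in cortex (0.000134) and 0.30 ± 0.09 lower than in striatum (0.00497). Kdm1a, an H3K4 demethylase of the CoREST complex, passed no comparison without the length offset, with intervals within −0.33 to 0.21. With the offset it was no longer among the members that passed none.

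The 10 deacetylases showed the widest mix of directions. Hdac8, an X-linked class I enzyme that deacetylates cohesin, had 2.28, 2.78 and 3.17 RPKM (lowest, median, highest) in WT cortex, 2.51, 3.11 and 3.34 in striatum, with 5.28, 6.46 and 7.35 in cerebellum. Cerebellum did not overlap the others, and the log2 fold changes were 1.24 ± 0.10 (adjusted p = 8.97e-16) and 1.08 ± 0.10 (6.90e-14). Hdac9 had 1.30, 2.27 and 3.56 RPKM in WT cortex, 0.441, 0.771 and 1.65 in striatum, with 0.596, 0.837 and 1.18 in cerebellum. It was highest in cortex in all 8 mice, by 1.41 ± 0.21 over striatum (8.75e-07; 0.91 with the length offset) and with −1.38 ± 0.21 for cerebellum over cortex (1.50e-07). The highest striatal value was that of mouse M754, one of the libraries that stand apart, and without those 6 the difference was 1.59.

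Hdac11 had 43.8, 47.7 and 55.4 RPKM (lowest, median, highest) in WT cortex, 49.6, 62.5 and 86.9 in striatum, with 34.7, 40.9 and 57.8 in cerebellum. It was highest in striatum, with −0.42 ± 0.10 for cortex (adjusted p = 0.000681) and −0.61 ± 0.10 for cerebellum (9.85e-07), and Hdac5 and Hdac3 were likewise lower in cortex and in cerebellum than in striatum, by smaller steps of 0.21 to 0.35. In Mbd5+/GT mice Hdac11 was called in both comparisons, and Hdac5 and Hdac3 in neither, with the same sign. The oligodendrocyte markers were also highest in striatum, and their part in these differences was not tested. Hdac2, a class I partner of Hdac1 in several repressor complexes, had medians of 21.5, 22.1 and 21.8 RPKM, and its intervals lay within −0.15 to 0.14 in the 3 WT comparisons, while Hdac1 was 0.50 ± 0.10 and 0.31 ± 0.10 higher in cerebellum (5.11e-05 and 0.00780).

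The CHD remodellers held the largest differences of all 55 members. Chd7, whose human gene is mutated in CHARGE syndrome, had 0.961, 1.40 and 1.60 RPKM (lowest, median, highest) in WT cortex, 1.12, 1.50 and 1.94 in striatum, with 6.80, 17.2 and 26.0 in cerebellum. The lowest cerebellar value, of mouse M754, was above every cortical and striatal one. The fitted log2 fold change was 3.62 ± 0.25 over cortex (12.3-fold, adjusted p = 6.20e-18) and 3.44 ± 0.25 over striatum (10.9-fold, 2.50e-17), and 3.75 and 3.51 without the 6 libraries that stand apart. Over the 9 alternative settings, the length offset among them, it ran from 3.58 to 3.75 over cortex and from 2.95 to 3.51 over striatum. In Mbd5+/GT cerebellum Chd7 had 1.96, 15.7 and 29.9 RPKM, and the lowest value, of mouse M755, was that of the library with the fewest cerebellar marker transcripts.

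Chd5, a remodeller found largely in neurons, had 26.9, 33.1 and 49.2 RPKM (lowest, median, highest) in WT cortex, 14.4, 22.5 and 36.4 in striatum, with 3.53, 4.84 and 15.5 in cerebellum. The highest cerebellar value was again that of mouse M754 and overlapped striatum. On the log2 scale the difference was −2.44 ± 0.29 for cerebellum over cortex (adjusted p = 4.25e-10) and −1.83 ± 0.29 over striatum (2.16e-07), and −2.99 and −2.27 without the 6 libraries. Chd3 had 56.4, 69.1 and 83.9 RPKM in WT cortex, 47.9, 60.0 and 93.8 in striatum, with 16.4, 22.0 and 35.1 in cerebellum. Cerebellum lay below both other regions without overlap, by −1.57 ± 0.16 (4.16e-12) and −1.38 ± 0.16 (1.36e-10). The third NuRD-type ATPase, Chd4, passed no WT comparison, with −0.14 ± 0.09 to 0.16 ± 0.09, but was 0.23 higher in cerebellum than in cortex without the 6 libraries (adjusted p = 0.0396). With the length offset Chd4 was no longer among the members that passed no WT comparison. Of the others, Chd1, Chd2, Chd8 and Chd9 were higher in cerebellum than in both other regions (Chd8 over striatum 0.58 ± 0.10, and 0.04 with the length offset, adjusted p = 0.672), with Chd9 up by 1.23 ± 0.18 over striatum (4.71e-08; 0.52 with the length offset).

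Between cerebellum and cortex the 4 SWI/SNF and 2 acetyltransferase genes had log2 fold changes of −0.14 to 0.20 and none passed by edgeR, the nearest being the ATPase gene Smarca4 (0.20 ± 0.10, adjusted p = 0.0940), which did pass without the 6 libraries (0.26, adjusted p = 0.0350). Against striatum, Arid1b, the subunit most often mutated in Coffin-Siris syndrome, was 0.48 ± 0.13 higher in cortex (adjusted p = 0.00310) and 0.34 ± 0.13 higher in cerebellum (0.0242), and 0.04 and −0.09 with the length offset (0.783 and 0.435), and the cerebellar difference did not pass without the 6 libraries (0.30, 0.0592). Smarca2, the other ATPase gene, was 0.38 ± 0.10 and 0.44 ± 0.10 higher (0.00173 and 0.000124), and −0.12 and −0.04 with the offset. Ep300, a histone acetyltransferase, had 3.97, 6.24 and 7.48 RPKM (lowest, median, highest) in WT cortex, 2.38, 3.24 and 4.56 in striatum, with 4.58, 6.94 and 10.1 in cerebellum. It was 0.79 ± 0.17 higher in cortex than in striatum (0.000212) and 0.97 ± 0.17 higher in cerebellum (2.46e-06), and 0.30 and 0.47 with the offset (0.00729 and 1.25e-05). Its relative Crebbp was 0.41 ± 0.12 and 0.51 ± 0.12 higher, and −0.07 and 0.04 with the offset.

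Over the 3 WT comparisons, 23 members (41.8%) were higher in cerebellum than in both other regions, 19 (34.5%) were lower in striatum than in both, and 8 (14.5%) passed none, against 20.1%, 15.8% and 17.5% of all genes tested. The 8 were Hdac6, Suv39h1, Arid1a, Kdm1a, Chd4, Hdac2, Smarca4 and Dnmt3a. With the length offset the counts were 21 (38.2%), 5 (9.09%) and 7 (12.7%), against 19.8%, 13.2% and 18.7% of all genes. The 5 still lower in striatum than in both were Kmt2e, Chd9, Kmt2a, Suz12 and Ep300, and of the 8 that passed none, Suv39h1 and Hdac2 also passed none with the offset. Another 91 chromatin genes, listed by name and tested in the same fits, gave 43 higher and 16 lower in cerebellum than in cortex, 52 and 18 against striatum, and 32 and 21 in cortex against striatum, with medians of 0.25, 0.39 and 0.13. In these comparisons 64.8%, 76.9% and 58.2% of them were called, against 55.8%, 65.5% and 47.0% of all genes.

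Ratios of related genes within a library do not depend on its depth, and they were compared between the 3 regions of each of the 18 mice by an exact sign-flip permutation test (2-sided), with 10 ratios, 30 tests and Benjamini-Hochberg adjustment over them. Of these, 26 passed, 8 of 10 between cerebellum and cortex, 10 between cerebellum and striatum and 8 between cortex and striatum. The ratio of Chd3 to Chd4 per length had 2.25, 3.00 and 3.55 (lowest, median, highest of 18 mice) in cortex, 1.60, 2.06 and 3.74 in striatum, then 0.619, 0.763 and 1.70 in cerebellum, so Chd3 exceeded Chd4 per length at the median in cortex and striatum and lay below it in cerebellum. It was lower in cerebellum than in cortex in 18 of 18 mice (−1.80 ± 0.44 log2 units, SD, adjusted exact permutation p = 2.54e-05 from the smallest p the test can give, 7.63e-06). Chd5 over Chd4 had medians of 1.44, 0.857 and 0.163 and was lower in cerebellum than in cortex in all 18 (−2.86 ± 0.83, adjusted exact permutation p = 2.54e-05). Tet1 over Tet3 had medians of 0.172, 0.201 and 0.415, and was higher in cerebellum than in cortex in 18 mice (1.40 ± 0.52, the same adjusted p).

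Dnmt3a over Dnmt1 had medians of 1.19, 1.09 and 0.760 in cortex, striatum and cerebellum, and was lower in cerebellum than in cortex in 18 of 18 mice (−0.62 ± 0.24, adjusted exact permutation p = 2.54e-05). Kdm5a over Kdm5b had medians of 0.709, 0.613 and 1.25, with 17 of 18 mice higher in cerebellum than in cortex (0.75 ± 0.52, adjusted exact permutation p = 0.000186). Hdac1 over Hdac2 had medians of 0.347, 0.338 and 0.460 and was higher in cerebellum than in cortex in all 18 (0.44 ± 0.18, adjusted exact permutation p = 2.54e-05). Ezh1 exceeded Ezh2 in every library, with medians of 8.27, 5.72 and 6.94, and the ratio was higher in cortex than in striatum in 17 of 18 mice (0.49 ± 0.33, adjusted exact permutation p = 3.82e-05). Smarca2 over Smarca4 had medians of 0.774, 0.530 and 0.741, and its difference of 0.50 ± 0.29 between cortex and striatum (adjusted exact permutation p = 6.54e-05) was 0.25 with the length offset. Arid1a over Arid1b (medians of 1.89, 2.23 and 2.00) and Crebbp over Ep300 (1.16, 1.35 and 1.07) moved by at most 0.32 log2 units.

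**Figure D4:**
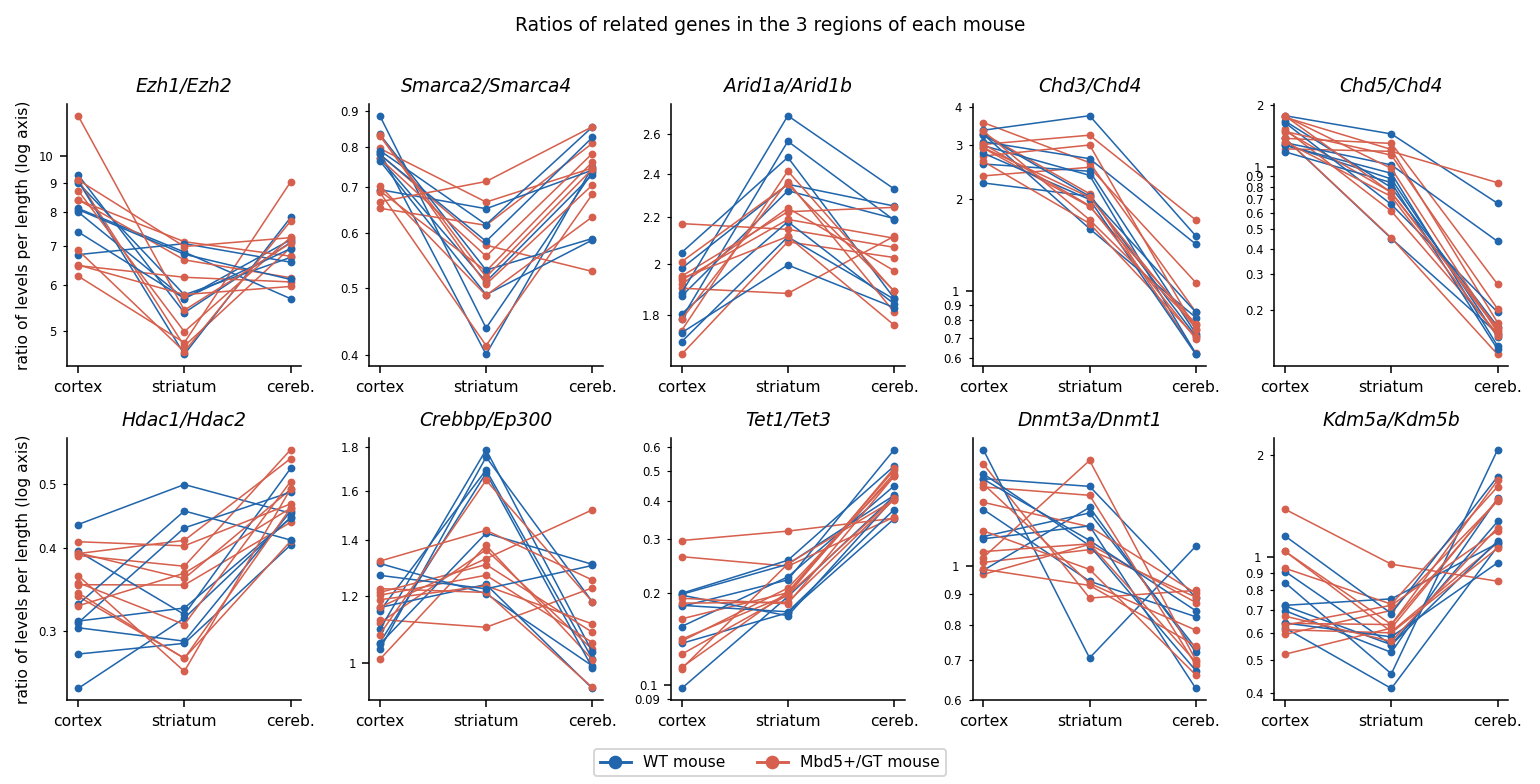
Ratio of the levels per length of 10 pairs of related genes on log axes, with 1 line per mouse through its cortex, striatum and cerebellum libraries, WT in blue and Mbd5+/GT in red. Chd3/Chd4 falls from a median of 3.00 in cortex to 0.763 in cerebellum, and is lower in cerebellum than in cortex in 18 of 18 mice.

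Mbd5+/GT and WT mice were compared within each region with edgeR's quasi-likelihood test with surrogate variables, which stand for unwanted variation estimated from the counts. No member passed an adjusted p under 0.05 in cortex, striatum or cerebellum by edgeR (0.0107%, 0.00539% and 0.00551% of all genes did), and DESeq2 called 1, 0 and 0. At an unadjusted p under 0.05, 4 of 55 members (7.27%) passed in cortex, 2 (3.64%) in striatum and 0 in cerebellum, against 8.47%, 7.44% and 2.75% of all genes tested. The cortical share was near that of all genes, and it was 18.2% (10 members, against 11.2% of all genes) where every library had to hold at least 10 counts. The members' log2 fold changes ranged from −0.20 to 0.30 (cortex), −0.09 to 0.21 (striatum) and −0.14 to 0.07 (cerebellum), with medians of −0.02, 0.02 and 0.0013. The 95% intervals of 52, 51 and 53 members lay within a change of 1.25-fold in either direction, and those of 54, 55 and 55 within 1.5-fold. These intervals take the surrogate variables, estimated from the same libraries, as known. The share of all genes within these limits was not counted. The genotypes overlapped in every member and region, as they did in all but 0.0107%, 0.00% and 0.00% of all genes tested in cortex, striatum and cerebellum.

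**Figure D5:**
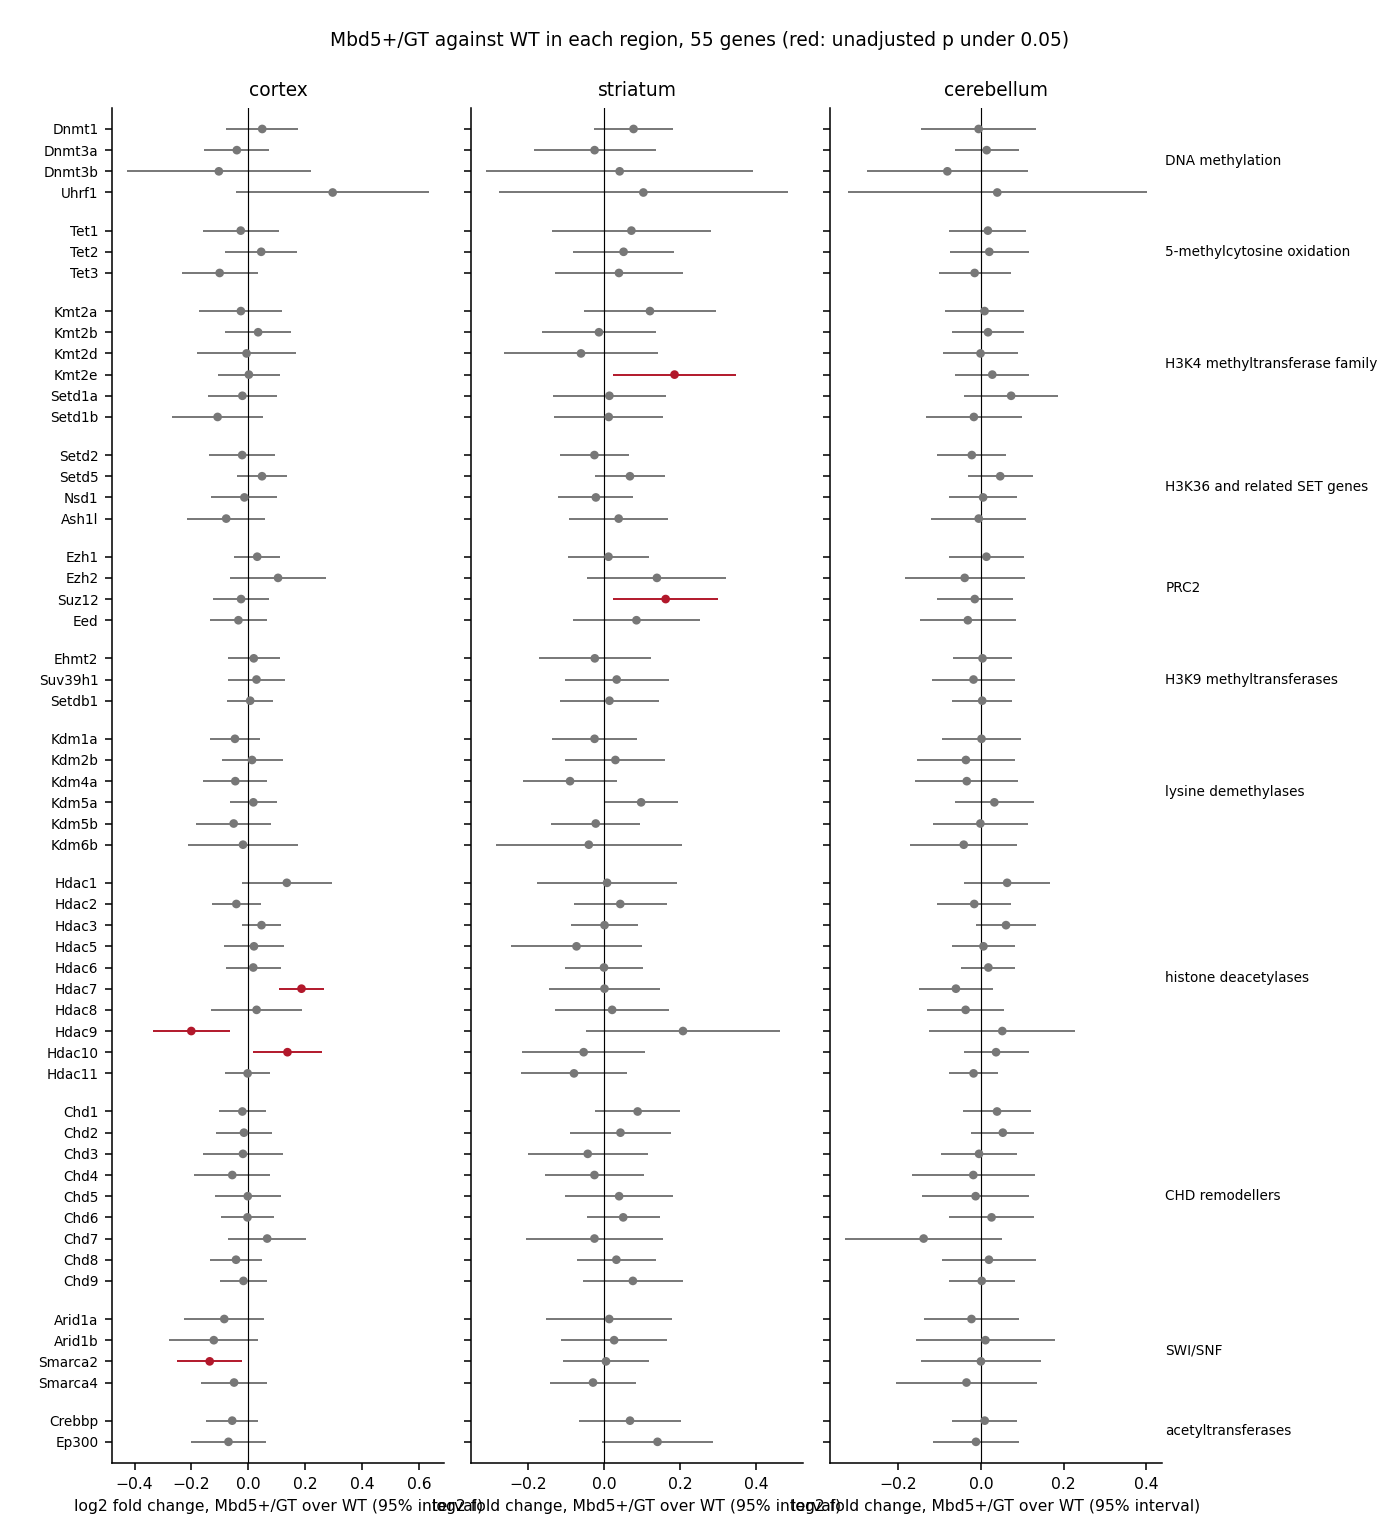
Log2 fold changes of Mbd5+/GT over WT with 95% intervals for the 55 members in each region, ordered by role, in red where the unadjusted p is under 0.05. The 6 red points are Hdac7, Hdac9, Hdac10 and Smarca2 in cortex and Suz12 and Kmt2e in striatum, all within 0.21 of 0.

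Markers of neighbouring tissue had different medians in WT and Mbd5+/GT cortex, a difference that was not tested. The summed level of 8 striatal markers had a median of 1219 CPM (166 to 2002) in WT and 562 (255 to 1406) in Mbd5+/GT cortex, and that of 5 choroid plexus markers one of 64.3 CPM (13.2 to 239) and 287 (8.32 to 1334), with ranges that overlapped. In striatum the striatal markers had medians of 4070 CPM (WT) and 3178 (Mbd5+/GT), and the choroid plexus markers 82.1 and 134, also with overlapping ranges. The part of these markers in the cortical and striatal values that follow was not tested.

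In cortex the smallest p belonged to Hdac7, a class IIa deacetylase also known from endothelium. Normalized counts were 1266, 1705 and 2566 (lowest, median, highest) in WT and 1379, 2071 and 2180 in Mbd5+/GT mice, so the highest value was a WT one. The log2 difference was 0.19 ± 0.04 (unadjusted p = 9.78e-05, edgeR adjusted p = 0.173), with 9 of 10 Mbd5+/GT mice above the WT mean. By DESeq2 with the same surrogate variables the adjusted p was 0.00358, where 62 genes passed in all. Without surrogate variables the difference was 0.22 in mean log2 counts, with an exact permutation p of 0.0863 over all 43758 assignments and 0.0769 over the 3500 that keep the litters, and the sign was positive in each litter (0.30, 0.59 and 0.14).

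Hdac9 had 574, 1006 and 1577 normalized counts (lowest, median, highest) in WT and 597, 879 and 1056 in Mbd5+/GT cortex. The log2 fold change was −0.20 ± 0.06 (unadjusted p = 0.00611, adjusted p = 0.406), with an exact permutation p of 0.223 without surrogate variables. Smarca2 had 5904, 6755 and 8871 normalized counts in WT and 5111, 6532 and 8645 in Mbd5+/GT cortex, and its log2 fold change was −0.14 ± 0.05 (unadjusted p = 0.0221, edgeR adjusted p = 0.497). Hdac10 had 449, 545 and 755.6 against 489, 642 and 747, with 0.14 ± 0.06 (unadjusted p = 0.0277, edgeR adjusted p = 0.514). Each of these ranges overlapped almost fully. Over the 9 alternative settings the unadjusted p ran from 1.95e-06 to 0.0812 for Hdac7, from 0.00459 to 0.393 for Hdac9, from 0.0174 to 0.438 for Smarca2 and from 0.0275 to 0.152 for Hdac10.

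In striatum Suz12 had 785, 945 and 1393 normalized counts (lowest, median, highest) in WT and 965, 1149 and 1631 in Mbd5+/GT mice. The fitted log2 fold change was 0.16 ± 0.07 (unadjusted p = 0.0237, edgeR adjusted p = 0.630), with 8 of 10 Mbd5+/GT mice above the WT mean of 997. Kmt2e had 1321, 2147 and 3003 in WT and 2169, 2670 and 3368 in Mbd5+/GT mice, with 0.19 ± 0.08 (unadjusted p = 0.0260, edgeR adjusted p = 0.632) and 9 of 10 above the WT mean of 2171. Kdm5a followed with 771, 1084 and 1431 against 919, 1311 and 1621 and 0.10 ± 0.05 (unadjusted p = 0.0510, edgeR adjusted p = 0.675). In mean log2 counts Kmt2e differed by 0.65 in litter 1, −0.11 in litter 2 and 0.28 in litter 3, and Suz12 by 0.58, 0.07 and 0.19. Without surrogate variables 3 striatal members (5.45%) had an unadjusted p under 0.05 by edgeR, against 5.44% of all genes, and the same 3 had an exact permutation p under 0.05. They were Kmt2e (exact permutation p = 0.0198, and 0.0269 over assignments that keep the litters), Suz12 (0.0440 and 0.0509) and Chd1 (0.0191 and 0.0249), the last named after its values were seen. In cortex and cerebellum 0 members passed either of these tests without surrogate variables, against 3.43% and 0.463% of all genes by edgeR. Chd1, a remodeller of transcribed genes, had 998, 1230 and 1526 normalized counts in WT and 1218, 1396 and 1638 in Mbd5+/GT striatum, and its fitted log2 fold change was 0.09 ± 0.05 (unadjusted p = 0.112, edgeR adjusted p = 0.735). The exon length trend had medians of −0.34 in WT and −0.20 in Mbd5+/GT striatum, with overlapping ranges. Its medians also lay apart in cortex (0.29 and 0.18) and cerebellum (0.13 and 0.03), and no difference in it between genotypes was tested. The tests without surrogate variables held no offset for this trend. With surrogate variables and that offset, Kmt2e and Suz12 (3.64% of members) had an unadjusted p under 0.05 by edgeR, against 6.34% of all genes.

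Neither Kmt2e nor Suz12 passed in 3 reduced sets of libraries. Kmt2e was at 0.050 without litter 2 (unadjusted p = 0.692 by edgeR), 0.152 without the 2 WT libraries labelled as repeated (0.102) and 0.155 without the WT libraries of mice M754 and M761 (0.0551). Suz12 was at 0.068 (unadjusted p = 0.556 by edgeR), 0.132 (0.0883) and 0.144 (0.0544) in the same order. The count of members past the unadjusted threshold was 0 in each of these sets, against 1.57%, 4.66% and 5.46% of all genes.

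In cerebellum the smallest p belonged to Hdac3, with 2423, 2868 and 3341 normalized counts (lowest, median, highest) in WT and 2742, 3070 and 3564 in Mbd5+/GT mice and a log2 fold change of 0.06 ± 0.03 (unadjusted p = 0.0934, edgeR adjusted p = 1.00). Chd7 (−0.14 ± 0.09, unadjusted p = 0.144) and Chd2 (0.05 ± 0.04, unadjusted p = 0.165) followed, by the same edgeR test. Without the 4 cerebellum libraries that stand apart Chd7 was at −0.008 (unadjusted p = 0.888 by edgeR), and without surrogate variables at −0.036 (0.909). Of the 91 other chromatin genes, 5 passed the unadjusted threshold in cortex (2 higher, 3 lower), 7 in striatum (all higher) and 1 in cerebellum (higher). These were 5.5%, 7.69% and 1.10%, against 8.47%, 7.44% and 2.75% of all genes tested. Of the 91, 0 passed the adjusted threshold in any region by edgeR.

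The genotype effect was compared between regions as an interaction in the fit of all libraries. No member passed an unadjusted p under 0.05 for cerebellum against cortex, cerebellum against striatum or cortex against striatum, by edgeR or by DESeq2, where 1.11%, 2.68% and 4.22% of all genes did by edgeR. The smallest p were those of Hdac7 between cerebellum and cortex (difference of log2 fold changes −0.26 ± 0.17, unadjusted p = 0.139), followed by Hdac2 and Uhrf1 (0.405 and 0.429), of Hdac3 between cerebellum and striatum (0.15 ± 0.08, unadjusted p = 0.0811), followed by Hdac5 and Suz12 (0.129 and 0.137), and of Suz12 between cortex and striatum (−0.33 ± 0.18, unadjusted p = 0.0754), followed by Hdac9 and Chd1 (0.0855 and 0.104). The edgeR adjusted p was at least 0.989 for each. Among the 30 comparisons of the 10 ratios between genotypes, 1 had an exact permutation p under 0.05 before adjustment, Kdm5a over Kdm5b in striatum (0.27 log2 units higher in Mbd5+/GT, p = 0.0354), and none after it (adjusted exact permutation p = 0.841).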

How the data were processed

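RNA of 54 libraries (3 brain regions of 18 mice) was analysed. The authors aligned reads to GRCm38 with STAR 2.4.2 and Ensembl annotation, with quality checks by FastQC 0.10.1, and deposited raw counts per gene from its GeneCounts option, not normalized. The 92 ERCC spike-ins (0.0207% to 0.728% of a library) were left out. Gene names, positions and exon lengths came from a GRCm38 annotation that matched 46488 of 47069 identifiers. Every count column was used.

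The tests covered genes that exceeded 4 counts in 8 or more libraries and used edgeR 4.0.16 (quasi-likelihood, robust, TMM, Benjamini-Hochberg adjustment) in R 4.3.3. Genotype was tested per region with 4, 4 and 2 surrogate variables (sva 3.50.0) in cortex, striatum and cerebellum, over 18661, 18546 and 18160 genes. Regions and interactions were tested in 1 fit of 6 groups over 20477 genes without surrogate variables. DESeq2 1.42.0 was an alternative, as were other filters, scalings, covariates and subsets of libraries. The offset for exon length and the fits without the libraries that stand apart were added after the data were seen. That offset was the smoothed dependence of each library's log2 CPM, relative to the mean of all libraries, on exon length (lowess, span 0.3). Promoter windows came from RefSeq (GRCm38.p6). Ratios and single genes were tested by exact permutation. The tests were tried on simulated data first.

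Same-numbered libraries came from the same mouse. The median correlation of their deviations from the group means was 0.145 (cerebellum, cortex), 0.0551 (cerebellum, striatum) and 0.0840 (cortex, striatum), and −0.0064 to −0.0037 between different mice. The smallest chi-square between 2 libraries of a group was 8.85 per gene over 219 pairs, so every pair within a group differed by more than counting error. Pairs across groups were not compared.

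The members, gene lists and rules were chosen with earlier results of these data known. Named were, for genotype, members with an unadjusted p under 0.05 and at least the 3 smallest per region; for regions, the 4 highest and 4 lowest log2 fold changes per WT comparison and the largest of each role group; the 3 smallest p per interaction; and the 5 highest and 5 lowest levels per region. Other members named were chosen after their values were seen. Libraries stood apart when their region's markers fell under 1 in 3 of the median or hindbrain Hox genes exceeded 10 CPM.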

Additional observations from a re-analysis of the deposited data

Results flagged for a closer look

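In 24 members the samples of each of the 6 groups were searched for a highest or lowest value far from the rest, by the gap to its nearest neighbour as a share of the group's range. Of 144 groups, 12 stood out, where 1 in 20 would give 7.2, and 8 of the 12 were libraries that stand apart by region markers. Mbd5+/GT cerebellum M755, which had the fewest cerebellar marker transcripts, was lowest for Chd7 (816 normalized counts, the next 5564, gap 0.705 of the range), Ezh2 (231 and 384, gap 0.620), Hdac10 (gap 0.627) and Hdac8 (589 and 855, gap 0.608), and highest for Chd5 (5803 and 1947, gap 0.598) and Hdac11 (7988 and 5350, gap 0.588). WT cerebellum M754 was lowest for Dnmt3b (54.4 and 92.5, gap 0.598) and Ezh2 (311 and 411, gap 0.536). The other 4 were in libraries that did not stand apart. In Mbd5+/GT cortex M753 was highest for Chd3 (24980 and 19920, gap 0.481) and M766 lowest for Hdac7 (1379 and 1809, gap 0.593). In WT mice M759 was lowest for Hdac8 in striatum (367 and 430, gap 0.553) and M757 lowest for Suz12 in cortex (1127 and 1465, gap 0.594).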

How the results depend on the processing

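Of the counts of members and ratios under alternative settings, 135 stayed within 1.5 times the reported count or equalled it and 17 did not. The member counts took no account of direction. Between cortex and striatum in WT mice they were 29 without and 28 with the length offset, although the split of higher and lower turned. Counts of 0 that stayed 0 are among the 135. Members past an unadjusted p under 0.05 by genotype in cortex were 4, and 0 where surrogate variables were left out (3.43% of all genes), 2 where litter and sex took their place (4.11%), 2 with no filter on low counts (7.84%), 10 where every library had at least 10 counts (11.2%) and 7 without litter 2 (9.15%), while DESeq2 called 1 by adjusted p (Hdac7) against 0 by edgeR. In striatum they were 2, and 4 with litter and sex (9.22% of all genes), 1 with at least 10 counts in every library (4.34%), and 0 without litter 2 (1.57%), without the repeated striatum libraries (4.66%) or without the libraries that stand apart (5.46%). Cortex against striatum in Mbd5+/GT mice gave 19 calls and 2 without litter 2 (35.4% and 4.06% of all genes). The interaction counts of 0 became 1 for cerebellum against striatum with at least 10 counts in every library and without the repeated libraries (Hdac3 in both, 2.69% and 1.96% of all genes), and 1 for cortex against striatum without litter 2 (Hdac9, 6.79%), without the repeated libraries (Hdac1, 3.07%) and without the libraries that stand apart (Hdac9, 4.12%). Of the values of named members, 286 kept direction and side of the threshold, 23 were no longer past it, 2 came to pass it, and Chd2 in cerebellum changed sign, from 0.053 to −0.016 with 1 surrogate variable fewer. The cause was not tested for any of these.

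With the mouse as a replicate block, WT calls numbered 30, 43 and 29 (cerebellum against cortex, cerebellum against striatum, cortex against striatum). Of all genes, 56.1%, 65.8% and 47.3% were called, in the same order. Mbd5+/GT calls numbered 32, 40 and 20, against 60.1%, 65.5% and 36.2% of all genes. The interaction gave 0 members in each, against 1.00%, 2.64% and 3.93% of all genes. In WT mice Kdm5a and Chd9 were then no longer called between cerebellum and cortex, nor Tet1 between cortex and striatum. In Mbd5+/GT mice the same held for Chd9 and Nsd1 between cerebellum and cortex and for Suz12 between cortex and striatum. All of these kept their sign. Without the pairing of mice, 26 of the 30 ratio comparisons between regions passed, as with it.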
